A study of Mus musculus with 4 samples.

Results

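Matrix metalloproteinases and their tissue inhibitors were followed in nuclei of mouse brains that carried a photothrombotic (PT) lesion. The genes were Mmp2, Mmp3, Mmp11, Mmp12, Mmp14, Mmp16, Timp1, Timp2, Timp3 and Timp4, which are 10 of the 33696 gene features counted. They were chosen by their UMI levels in these same nuclei, by cell type, fibroblast state, region and library, so their levels and differences are given as descriptions, with no test. All 10 were detected in the data.

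PT injury makes a focal ischaemic lesion in the cortex, which fibroblasts enter and which fills with extracellular matrix. Single-nucleus RNA sequencing (snRNA-seq) was done at 21 days post-injury (dpi) in injured wild-type mice (control) and in injured Col1a2(creER); Cxcl12(flox) mice (Cxcl12-cKO), in which a tamoxifen-inducible Cre under the Col1a2 promoter, active in fibroblasts, is meant to delete Cxcl12. Each genotype was 1 library that pooled 1 male and 1 female mouse, with tagged nuclei mixed as 75% lesion and 25% parenchyma and then split into a lesion and a parenchyma matrix. With 1 library per genotype there is no replicate check of any difference between the genotypes.

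Matrix metalloproteinases are zinc-dependent proteases that are made as inactive proenzymes and that cut collagens and other matrix components. Tissue inhibitors of metalloproteinases (TIMPs) bind the active site and block it, and TIMP2 also takes part in the activation of pro-MMP2 by MMP14 at the cell surface. After brain injury such proteases are known for opening the blood-brain barrier early and for remodelling the scar later.

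The filtered matrices held 8095 lesional nuclei in the library with the control label (the control-labelled library) and 7933 in that with the Cxcl12-cKO label (the cKO-labelled library), and 2877 and 2838 parenchymal nuclei. Pairs of values below keep this order. The median number of unique molecular identifiers (UMIs, counted transcript molecules) per nucleus was 2962 and 2975 in lesions, against 15915 and 16648 in parenchyma, where most nuclei were neuronal. No barcode was shared between the matrices of 1 library, and 1 to 22 were shared between libraries. Nuclei were clustered with the genes of the protease pathway left out and were named from marker genes, so each class is called "-like". Summed over 8 fibroblast markers, lesional fibroblast-like nuclei held 4841 and 4419 UMIs-per-million of the class (CPM), against 363 and 242 in myeloid-like nuclei. Sub-clusters with raised markers of fibroblasts on top of another class, 499 and 483 lesional nuclei, were set apart. Levels are ranked over the classes that held at least 50 nuclei in each library, without these mixed sub-clusters. Cxcl12 itself was counted at 106.6 CPM in lesional fibroblast-like nuclei of the control-labelled library and at 215.5 in the cKO-labelled library, the opposite order to the label. The sources used here do not say which exons are deleted, and the libraries read the 3′ ends of transcripts, so this level does not check the deletion. Every direction below is that of the cKO-labelled over the control-labelled library.

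The stretches upstream of Mmp3, Mmp12 and Timp1 are shown because these 3 were the members past the fold used here in lesional fibroblast-like nuclei. RefSeq tables on GRCm38.p6 held promoter windows for 8 of the 10 members, and Mmp2 and Mmp16 had no entry. The 250 bases before each annotated start are given 5′ to 3′ on the strand of the gene, and capitals mark the matches to 3 motifs, each searched on both strands. The motif of the AP-1 factors was spelled TGANTCA. The box bound by the TATA-binding protein was spelled TATAAA. The GC box bound by Sp1 was spelled GGGCGG. No matches overlapped. Mmp12 has 2 annotated starts.
Mmp3, chr9:7445572-7445821, plus strand: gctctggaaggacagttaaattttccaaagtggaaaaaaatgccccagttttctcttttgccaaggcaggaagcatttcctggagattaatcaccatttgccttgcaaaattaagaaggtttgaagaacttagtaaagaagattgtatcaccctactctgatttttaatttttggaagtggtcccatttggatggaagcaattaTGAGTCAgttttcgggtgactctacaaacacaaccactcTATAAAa
Mmp12, upstream start, chr9:7344147-7344396, plus strand: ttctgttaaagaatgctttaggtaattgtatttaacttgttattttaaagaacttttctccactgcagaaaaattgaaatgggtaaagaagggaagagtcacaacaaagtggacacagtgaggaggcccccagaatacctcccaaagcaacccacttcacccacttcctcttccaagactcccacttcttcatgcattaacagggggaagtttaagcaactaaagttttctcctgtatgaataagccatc
Mmp12, downstream start, chr9:7347124-7347373, plus strand: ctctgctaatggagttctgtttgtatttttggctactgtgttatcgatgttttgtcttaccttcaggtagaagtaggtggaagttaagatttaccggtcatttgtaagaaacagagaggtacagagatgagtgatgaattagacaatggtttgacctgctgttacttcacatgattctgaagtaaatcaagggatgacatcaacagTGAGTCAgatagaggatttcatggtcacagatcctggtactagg
Timp1, chrX:20869916-20870165, plus strand: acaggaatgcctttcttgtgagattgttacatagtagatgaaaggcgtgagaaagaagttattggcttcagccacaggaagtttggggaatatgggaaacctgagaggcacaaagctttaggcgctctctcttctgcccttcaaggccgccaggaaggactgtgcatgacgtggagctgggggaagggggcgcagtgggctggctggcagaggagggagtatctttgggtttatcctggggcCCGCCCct

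The Mmp3 window held an AP-1 motif that begins 46 bases before the start, and the window of the downstream Mmp12 start held an AP-1 motif 44 bases before it. Of the windows of the other members, none held an AP-1 motif. Over all 32851 promoter windows, 6.75% held the AP-1 motif, 12.4% the TATA box and 32.7% the GC box. Timp1 held 1 GC box, read on the opposite strand. These matches describe letters and do not show that a factor binds.

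Fibroblast-like nuclei supplied most of the UMIs of Mmp2, Mmp3, Mmp11 and Mmp14. Pooled over all kept nuclei, a mix that depends on how many nuclei of each class were loaded, fibroblast-like nuclei held 18.2% of all UMIs but 74.1% of the Mmp3 UMIs, 72.2% of Mmp11, 70.3% of Mmp14 and 68.0% of Mmp2. They held 57.3% of the Timp1 UMIs, 51.6% of Timp3 and 39.4% of Timp2. Myeloid-like nuclei, with 5.50% of all UMIs, held 76.8% of the Mmp12 UMIs and 22.1% of Timp2. Excitatory neuron-like nuclei, with 55.9% of all UMIs, held 76.1% of the Timp4 UMIs and 63.3% of Mmp16.

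**Figure D1:**
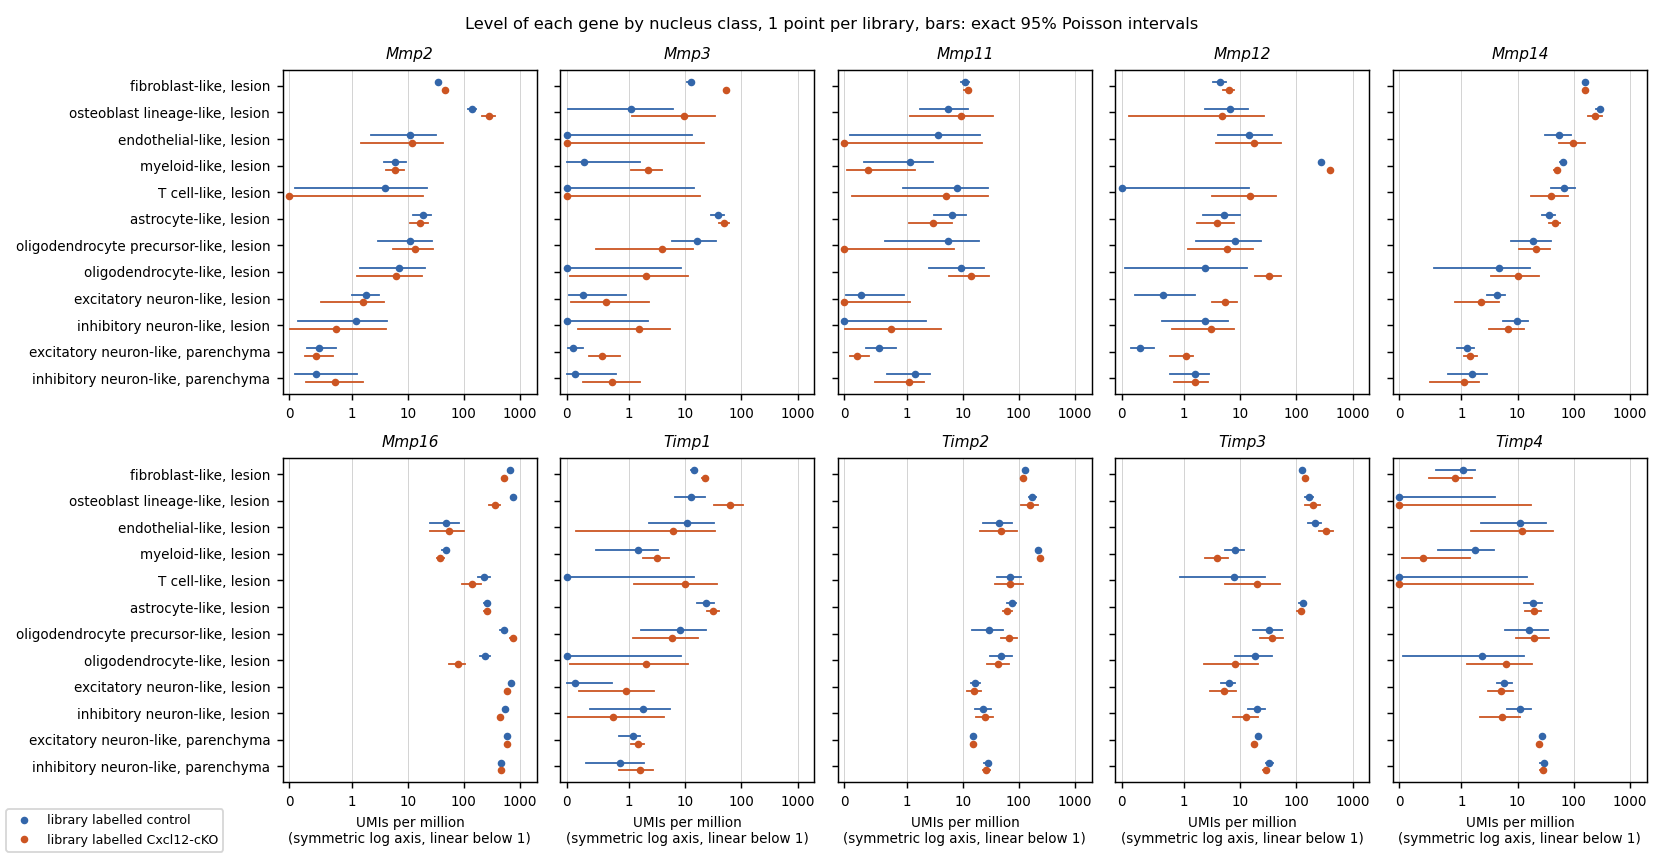
Level of each of the 10 genes (CPM, symmetric log axis) by nucleus class and region, 1 point for each library, with exact 95% Poisson intervals that cover counting error only. Mmp12 stood at 279 and 404 in myeloid-like nuclei, and Mmp16 was high in neuron-like, oligodendrocyte precursor-like, fibroblast-like and osteoblast lineage-like nuclei alike.

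Mmp2, gelatinase A, lies on chromosome 8 and cuts denatured collagen and type IV collagen. Its level was highest in osteoblast lineage-like nuclei, at 140 CPM in the control-labelled library (95% interval 117 to 166) and 275 in the cKO-labelled library (209 to 356). These nuclei came from the lesion matrices, and their numbers were unequal, 347 and 83. Lesional fibroblast-like nuclei came next, at 34.4 (31.4 to 37.6) and 45.9 (42.5 to 49.5). Astrocyte-like nuclei followed at 18.4 and 16.3, a place in the order at which intervals overlapped with the class below. Mmp2 was low in myeloid-like nuclei, at 6.01 and 6.05, and in parenchymal excitatory neuron-like nuclei, at 0.477 and 0.437.

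Mmp3, stromelysin 1, lies on chromosome 9 and cuts proteoglycans, fibronectin and other proenzymes of the family. In lesional fibroblast-like nuclei it was counted at 12.5 CPM (10.7 to 14.5) in the control-labelled library and at 53.5 (49.9 to 57.4) in the cKO-labelled library. In astrocyte-like nuclei it stood at 38.0 (29.0 to 49.0) and 48.8 (39.7 to 59.4), so neither class was above the other in both libraries. The astrocyte-like level in the control-labelled library rested on very few nuclei, since 56 of its 60 UMIs lay in 2 nuclei. Both belonged to a sub-cluster led by Tnfsf11 and Ptx3, in which Mmp3 was 77.2 and 64.1 CPM, against 1.63 and 6.56 in another astrocyte-like sub-cluster. In myeloid-like nuclei Mmp3 was at 0.286 and 2.15.

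Few fibroblast-like nuclei carried Mmp3 at all. A UMI was found in 60 of 4114 nuclei (1.46%) and in 193 of 4055 (4.76%). Nuclei with at least 1000 UMIs were also thinned to 1000, and shallower nuclei were left out of all thinned shares. The thinned shares were 0.699% and 2.25%, against 0% and 0.330% in myeloid-like nuclei. Median depths were 3074 and 3102 UMIs in fibroblast-like and 2024 and 2236.5 in myeloid-like nuclei.

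Mmp11, stromelysin 3, lies on chromosome 10 and is cut to its active form inside the cell by furin. Lesional fibroblast-like nuclei had 11.1 and 12.2 CPM. Oligodendrocyte-like nuclei stood at 9.30 and 14.3, with intervals that overlapped those values, and parenchymal neuron-like nuclei at 0.206 to 1.42. In mural-like nuclei, with 44 and 16 nuclei too few to be ranked, Mmp11 was at 68.8 (25.2 to 149.7) and 69.9 (14.4 to 204.2), from 6 and 3 UMIs. The gene overlaps Chchd10 on the opposite strand, and the sources used here do not give the strand setting of the counting.

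Mmp12, macrophage metalloelastase, lies on chromosome 9, cuts elastin and is known from macrophages. In lesional myeloid-like nuclei it was counted at 279 CPM (261 to 297) and 404 (387 to 422). No other ranked class passed 32.7. A dividing cluster of 46 and 93 nuclei, which was not ranked, stood at 542 (442 to 658) and 209 (169 to 255), the opposite order of the libraries, from 102 and 96 UMIs. Of these, 83 in the control-labelled library lay in nuclei of the male mouse and 66 in the cKO-labelled library in nuclei of the female mouse. The sub-clusters set apart as mixed stood at 62.5 and 102.1. A UMI was found in 123 of 1497 myeloid-like nuclei (8.22%) and in 296 of 1928 (15.4%), and thinned to 1000 UMIs in 6.20% and 10.4%. Fibroblast-like nuclei stood at 4.31 and 6.25 CPM, with thinned shares of 0.274% and 0.833%, which did not exceed the 0.711% and 0.889% of astrocyte-like nuclei at a median depth of 3281.5 and 3696 UMIs. Mmp12 in fibroblast-like nuclei is therefore read as background.

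Mmp14, membrane-type 1 MMP, lies on chromosome 14, cuts fibrillar collagen at the cell surface and activates pro-MMP2. Osteoblast lineage-like nuclei had 286 CPM (253 to 323) and 242 (180 to 318), and lesional fibroblast-like nuclei 159 (153 to 166) and 156 (150 to 162). Lower levels with overlapping ranges were seen in endothelial-like (54.6 and 95.6), T cell-like (66.2 and 39.9) and myeloid-like (63.9 and 50.5) nuclei. Parenchymal neuron-like nuclei stood at 1.09 to 1.56. Mmp14 was found in 37.2% and 38.0% of fibroblast-like nuclei, and thinned in 14.2% and 15.3%, against 0.137% and 0.0967% of parenchymal excitatory neuron-like nuclei, whose median depths were 17469.5 and 18410.5 UMIs.

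Mmp16, membrane-type 3 MMP, spans 266 kb of chromosome 4, the longest span of the 10 genes. It was broadly counted, with no class above the others in both libraries. Lesional excitatory neuron-like nuclei had 677 and 593 CPM, oligodendrocyte precursor-like nuclei 517 and 744, lesional fibroblast-like nuclei 657 and 516, and osteoblast lineage-like nuclei 735 and 351. Astrocyte-like nuclei were lower at 255 and 254, and myeloid-like nuclei, at 47.3 and 37.8, and endothelial-like nuclei, at 47.3 and 53.8, lower still. Nuclear RNA holds unspliced transcripts, and the sources used here do not say if intronic reads were counted.

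Timp1, an inhibitor induced in injured tissue, lies on chromosome X inside introns of Syn1 on the opposite strand. It stood at 12.9 and 61.7 CPM in osteoblast lineage-like nuclei, 23.4 and 31.6 in astrocyte-like nuclei, and 14.4 and 22.2 in lesional fibroblast-like nuclei. The osteoblast lineage-like values rest on 12 and 13 UMIs, with intervals of 6.67 to 22.6 and 32.9 to 106. Within astrocyte-like nuclei Timp1 was at 47.1 and 40.7 in the Tnfsf11-led sub-cluster and at 1.63 and 6.56 in the other sub-cluster named above for Mmp3. Myeloid-like nuclei had 1.43 and 3.12, from 5 and 16 UMIs.

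Timp2, which inhibits most MMPs and takes part in pro-MMP2 activation, lies on chromosome 11 and overlaps Cep295nl. It was highest in myeloid-like nuclei, at 216 CPM (201 to 232) and 239 (226 to 253). Osteoblast lineage-like nuclei followed at 174 and 157 and lesional fibroblast-like nuclei at 131 and 117. A UMI of Timp2 was found in 34.7% and 39.6% of myeloid-like nuclei.

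Timp3, the inhibitor that stays bound to the matrix, lies on chromosome 10 inside Syn3 on the opposite strand and shares exon bases with it. Among the ranked classes its level was highest in endothelial-like nuclei, at 215 CPM (163 to 277) and 340 (258 to 441), from 107 and 54 nuclei. Osteoblast lineage-like nuclei had 167 and 195, with intervals from 140 to 264 that overlapped those of endothelial-like nuclei. Lesional fibroblast-like nuclei had 124 and 143, and astrocyte-like nuclei 129 and 119. Mural-like nuclei, too few to be ranked, had 115 (55.0 to 211) and 280 (144 to 488), from 10 and 12 UMIs. Myeloid-like nuclei were far lower, at 8.02 and 3.90.

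Timp4, the inhibitor with the narrowest known tissue range, lies on chromosome 6 inside Syn2 on the opposite strand and shares exon bases with it. Among the ranked classes it was highest in parenchymal neuron-like nuclei, at 29.1 and 28.4 CPM in inhibitory and 26.9 and 23.7 in excitatory neuron-like nuclei. Parenchymal astrocyte-like nuclei, 37 and 45, were too few to be ranked. Lesional astrocyte-like nuclei had 19.0 and 19.2. Within lesions these were above inhibitory (10.8 and 5.23) and excitatory (5.80 and 5.11) neuron-like nuclei, so the order of neurons and astrocytes depends on the region. Fibroblast-like nuclei were near the floor, with 15 and 13 UMIs in all (1.06 and 0.892 CPM). In osteoblast lineage-like nuclei Timp4 had 0 UMIs in both libraries, which allows up to 3.97 and 17.5 CPM.

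Lesional fibroblast-like nuclei fell into 4 sub-clusters. A late inner-like state had all 5 late inner markers raised (1251 and 1534 nuclei). A leptomeningeal-like state led by Ranbp3l and Trpm3 held 1461 and 1317 nuclei, and a second leptomeningeal-like state led by Col4a6 and Col15a1 held 376 and 469. An altered dural-like state was led by Ccn3 and Hs3st1 (1026 and 735), with 4 altered dural markers raised. Its mean log2 fold over the other fibroblast-like nuclei was higher for a list of dural border markers (3.025) than for the altered dural list (1.126). No dural border marker met the limits for naming, so the name is only one reading of this state.

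Mmp2 was highest in the late inner-like state, at 72.8 CPM (65.0 to 81.3) and 77.5 (70.6 to 84.9). The Col4a6-led state had 51.2 and 51.4, and the Ranbp3l-led state 15.4 and 16.6. The altered dural-like state had 9.93 and 20.4, so it was the lowest in the control-labelled library and the Ranbp3l-led state in the other.

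Mmp11 and Timp3 were highest in the Col4a6-led state. Mmp11 was at 68.2 CPM there in the control-labelled library and at 52.1 in the cKO-labelled library, and at no more than 9.76 in the other 3 states. Timp3 was at 287 and 232 in the Col4a6-led state, 164 and 173 in the late inner-like state, 126 and 142 in the Ranbp3l-led state, and 33.3 and 35.6 in the altered dural-like state.

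Mmp16 had the reverse order. It was highest in the altered dural-like state, at 973 and 951 CPM, and lowest in the Col4a6-led state, at 175 and 143. The late inner-like state had 549 and 443, and the Ranbp3l-led state 589 and 454. Mmp14 varied less, from 109 in the altered dural-like state to 189 in the late inner-like state of the control-labelled library.

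Mmp3 was near absent from the altered dural-like state, with 4 and 3 UMIs (0.945 and 1.04 CPM). In the control-labelled library it was highest in the Col4a6-led state at 55.4, then 16.6 in the Ranbp3l-led and 8.04 in the late inner-like state. In the cKO-labelled library the same 3 states had 100.2, 67.2 and 57.7. The order was not that of each mouse, since the female mouse of the control-labelled library had 0 Mmp3 UMIs in the Col4a6-led state and 21.2 CPM in the Ranbp3l-led state, and 5 nuclei with at least 4 UMIs lay in the Col4a6-led state of that library. Timp1 was lowest in the altered dural-like state as well, at 7.56 and 9.67, and ranged from 16.3 to 27.3 in the other states.

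**Figure D2:**
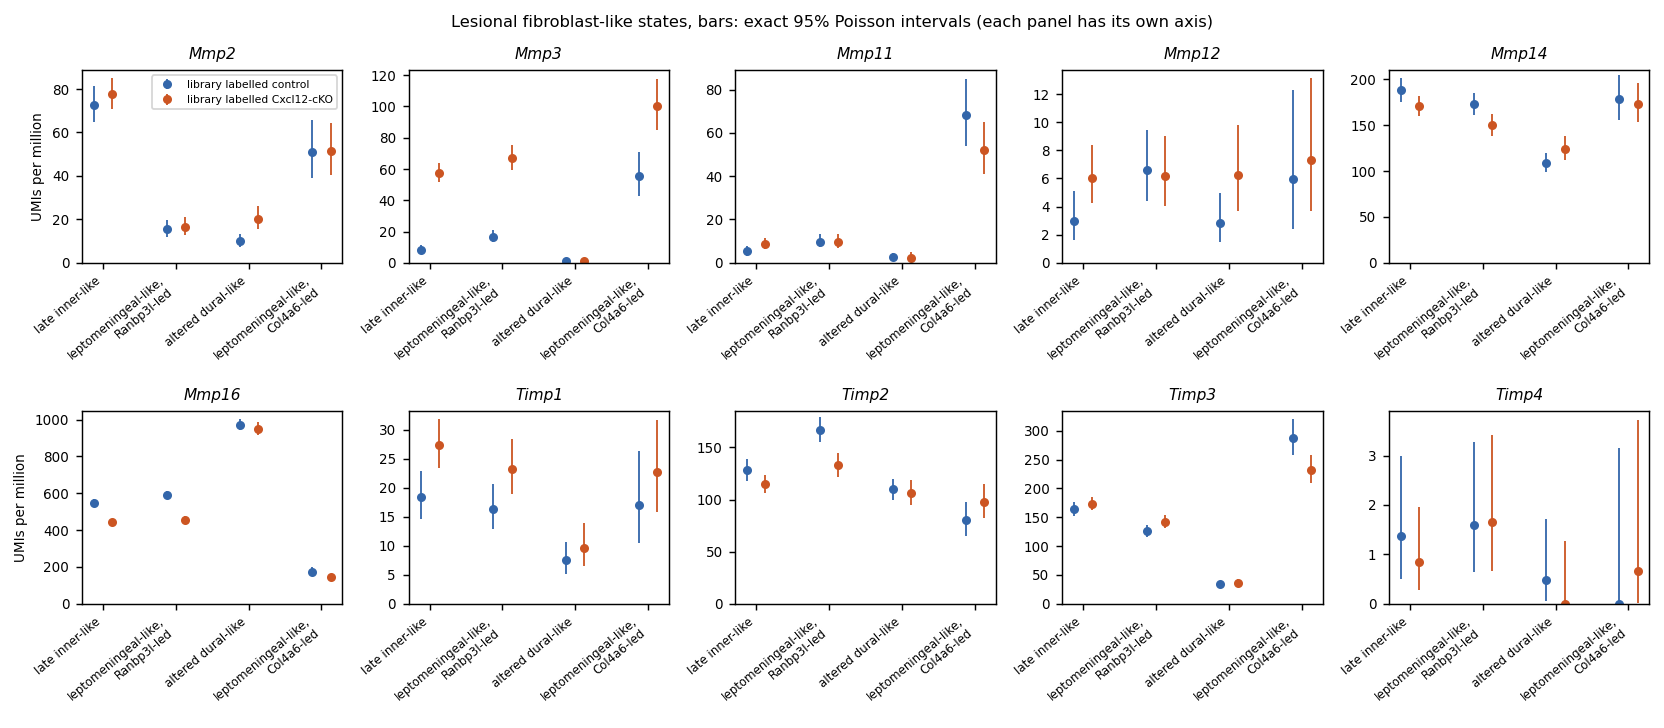
Level of each gene (CPM, each panel on its own linear axis) in the 4 lesional fibroblast-like states, 1 point for each library with exact 95% Poisson intervals for counting error. Mmp11 peaks in the Col4a6-led state (68.2 and 52.1), Mmp2 in the late inner-like state (72.8 and 77.5) and Mmp16 in the altered dural-like state (973 and 951).

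Differences between the libraries are given as the log2 ratio of the CPM values, with 0.5 UMI added to each sum and an exact 95% interval for counting error only. A ratio of at least 0.5 in size counts as past the fold, among genes with at least 20 UMIs over both libraries. In lesional fibroblast-like nuclei, of 16540 genes with enough UMIs, 7.44% were past it as higher in the cKO-labelled library and 5.57% as lower. All 10 members had enough UMIs, and 3 of 10, namely Mmp3, Mmp12 and Timp1, were past it as higher and 0 as lower. The median log2 ratio of the members was 0.18, and that of all these genes 0.005. The ratio is also given for nuclei assigned to the female and to the male mouse from Xist and Y-linked UMIs, where each value sets 1 mouse against 1 mouse.

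Mmp3 had the widest difference of the 10, with 177 UMIs in the control-labelled library and 780 in the cKO-labelled library (log2 ratio 2.10, 1.86 to 2.34). In nuclei of the female mice it went from 7.69 to 50.0 CPM (2.69, 2.24 to 3.19), and in nuclei of the male mice from 14.0 to 59.9 (2.09, 1.75 to 2.47). The difference was present in both sexes, and it was also seen in 3 of the 4 states, with log2 ratios of 2.82 in the late inner-like, 2.01 in the Ranbp3l-led and 0.85 in the Col4a6-led state. With the shares of the states made alike in both libraries the count of members past the fold was 2. In parenchymal excitatory neuron-like nuclei Mmp3 went from 4 to 22 UMIs (0.101 to 0.565 CPM), a class with a thinned share of 0% and 0.145%, which is read as background.

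A small set of nuclei held most of the Mmp3 UMIs. Nuclei with at least 4 Mmp3 UMIs numbered 11 in the control-labelled library and 64 in the cKO-labelled library, and they held 65.5% and 77.4% of the fibroblast-like Mmp3 UMIs. The highest nucleus had 26 and 32 UMIs. Of the 64, 21 were assigned to the female and 28 to the male mouse, and by state 26 were late inner-like, 24 Ranbp3l-led and 14 Col4a6-led. Without the highest nucleus of each library the log2 ratio was 2.26.

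Timp1 was counted 204 times in lesional fibroblast-like nuclei of the control-labelled library and 323 times in the cKO-labelled library (log2 ratio 0.62, 0.37 to 0.88). The ratio was 0.90 in nuclei of the female mice and 0.50 in nuclei of the male mice. It was 0.57 in the late inner-like state, 0.51 in the Ranbp3l-led state, 0.40 in the Col4a6-led state and 0.36 in the altered dural-like state. Its UMIs were spread, with 139 of 160 and 172 of 224 positive nuclei holding 1 UMI. Syn1, the host gene, was not past the fold in these nuclei.

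Mmp12 in fibroblast-like nuclei went from 61 to 91 UMIs (0.53, 0.05 to 1.03), with 1.02 in female-mouse and −0.08 in male-mouse nuclei, so the sexes did not share a direction. These are the UMIs read as background above. The summed level of 8 myeloid markers in fibroblast-like nuclei was 30.8 and 43.4 CPM, with all 8 detected in each library, against 3681 and 3108 in myeloid-like nuclei. Their part in the Mmp12 difference was not tested.

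Among the members not past the fold, Mmp2 was at 0.42 (0.24 to 0.59) and Mmp16 at −0.35 (−0.39 to −0.30). The Mmp2 ratio was 0.78 in nuclei of the female mice and 0.21 in nuclei of the male mice. By state it was 1.03 (0.44 to 1.64) in the altered dural-like state, past the fold, with 1.34 and 1.15 by sex, 0.11 in the Ranbp3l-led state and 0.00 (−0.50 to 0.52) in the Col4a6-led state. It was 0.09 within the late inner-like state, which made up 30.4% of the fibroblast-like nuclei in the control-labelled library and 37.8% in the cKO-labelled library, and 0.16 with the states weighted alike. The Mmp16 ratio was −0.23 with the states weighted alike, and −0.46 in female-mouse and −0.37 in male-mouse nuclei. Timp3 had 0.21 (0.12 to 0.30), Timp2 −0.16 (−0.26 to −0.07) and Mmp14 −0.03 (−0.11 to 0.05). Mmp11, at 0.14 (−0.18 to 0.46), and Timp4, at −0.24 (−1.44 to 0.92), had intervals that span 0.

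**Figure D3:**
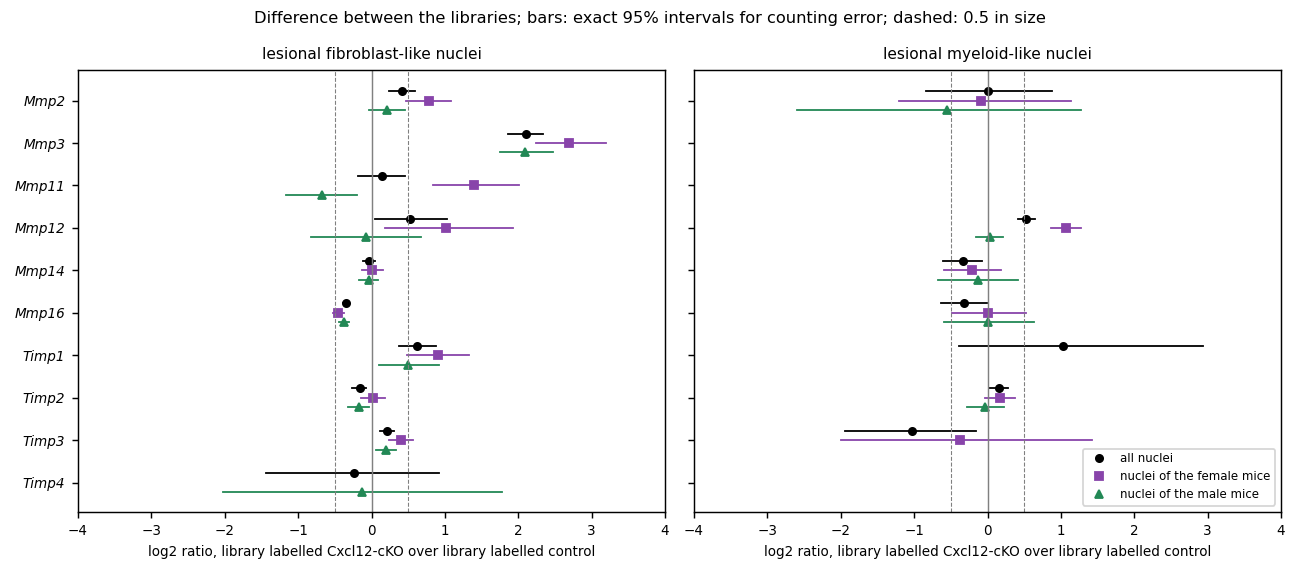
Log2 ratio of each gene, cKO-labelled over control-labelled library, in lesional fibroblast-like and myeloid-like nuclei, for all nuclei (circles) and for nuclei of the female (squares) and male mice (triangles), with exact 95% intervals for counting error. Points are left out where a gene had fewer than 20 UMIs in the class, or at most 3 UMIs in the nuclei of a mouse in either library; Mmp3 lies at 2.10 in fibroblast-like nuclei, and Mmp12 in myeloid-like nuclei is at 1.07 in female-mouse and 0.03 in male-mouse nuclei.

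In lesional myeloid-like nuclei 6.75% of 13476 genes were past the fold as higher and 8.04% as lower. Of the 7 members with enough UMIs, Mmp12 and Timp1 were past it as higher and Timp3 as lower. Mmp12 went from 973 to 2070 UMIs (log2 ratio 0.53, 0.42 to 0.65). The sexes differed in size, since Mmp12 went from 169 to 355 CPM in nuclei of the female mice (1.07, 0.86 to 1.28) and from 383 to 390 in nuclei of the male mice (0.03, −0.16 to 0.21). The male mouse of the control library thus already stood at the level that both mice had in the other library.

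By myeloid state, Mmp12 was highest in an unnamed state at 411 and 593 CPM, whose leading genes included Adra1a, F13a1 and Mrc1. F13a1 and Mrc1 were the only 2 markers of border-associated macrophages raised there, too few to name the state. The homeostatic microglia-like state had 188 and 234, and a small monocyte/dendritic-like state no more than 31.8. In the F13a1-led state the ratio was 1.20 in female-mouse and 0.37 in male-mouse nuclei. In the homeostatic microglia-like state it was 0.47 in female-mouse and −1.32 in male-mouse nuclei. Nuclei with at least 4 Mmp12 UMIs numbered 66 and 123 and held 91.3% and 87.4% of the myeloid-like Mmp12 UMIs, and the highest nucleus held 74 and 162.

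The other 2 members past the fold in myeloid-like nuclei rested on few UMIs. Timp1 had 5 and 16 (1.03, −0.39 to 2.93), and Timp3 had 28 and 20 (−1.03, −1.94 to −0.16). The summed level of 8 fibroblast markers in these nuclei was 363 and 242 CPM, all 8 detected in each library, and its part in the Timp3 difference was not tested. Timp2 was at 0.15 (0.02 to 0.28), and Mmp14 at −0.34 (−0.60 to −0.07). Mmp2 stood at 6.01 and 6.05 CPM, with a ratio interval of −0.84 to 0.88.

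**Figure D4:**
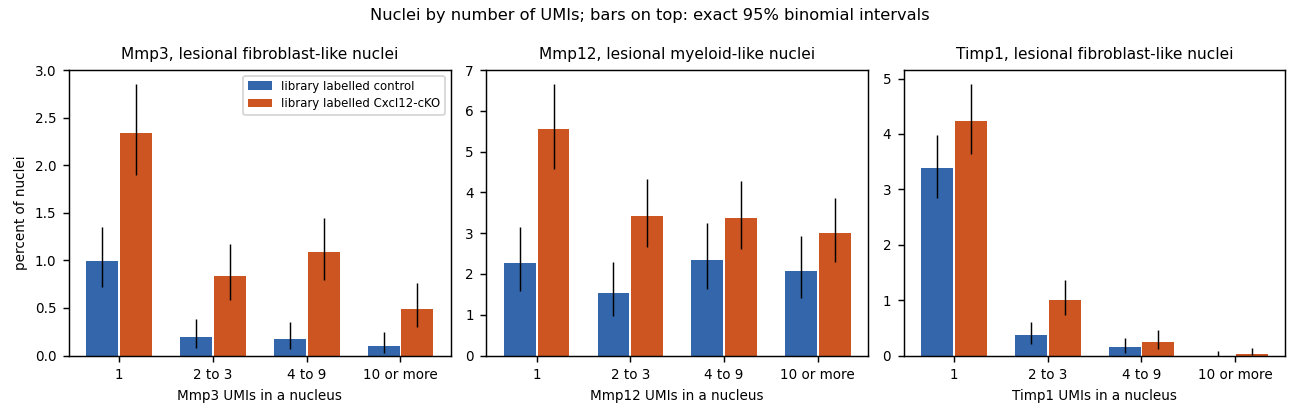
Percent of nuclei (linear axis from 0) that held 1, 2 to 3, 4 to 9, or 10 or more UMIs of Mmp3 and Timp1 in lesional fibroblast-like and of Mmp12 in lesional myeloid-like nuclei, by library, with exact 95% binomial intervals. Nuclei with 10 or more Mmp3 UMIs made up 0.0972% in the control-labelled library and 0.493% in the cKO-labelled library.

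In the smaller lesional classes the ratios rested on fewer nuclei. In osteoblast lineage-like nuclei 33.8% of 7529 genes were past the fold, and 3 of the 6 members with enough UMIs. Mmp2 was at 0.98 (0.50 to 1.43), Timp1 at 2.25 (1.01 to 3.52) and Mmp16 at −1.06 (−1.43 to −0.72), in a class where another scaling of the libraries moved every ratio by 0.13. By sex Mmp16 was at −0.29 (−0.84 to 0.18) in female-mouse and −1.52 (−2.15 to −0.98) in male-mouse nuclei. In oligodendrocyte-like nuclei 27.7% of 6050 genes were past the fold, and 1 of the 2 members with enough UMIs, Mmp16, at −1.60 (−2.19 to −1.06), but 50 of its 102 UMIs in the control-labelled library lay in 1 nucleus, and without the highest nucleus of each library the ratio was −0.86. In astrocyte-like nuclei 20.1% of 11487 genes were past the fold and 0 of the 8 members with enough UMIs, with Mmp3 at 0.36 (−0.12 to 0.85) and Timp1 at 0.42 (−0.18 to 1.05). The astrocyte-like Mmp3 ratio was not shared by the mice, since nuclei of the female mice held 59 and 34 UMIs (−1.01, −1.67 to −0.38) and nuclei of the male mice 0 and 35.

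The other genes of the pathway were followed through a list of 45 that holds the MMP genes, their inhibitors, genes of activation and clearance, and the host genes of the Timp genes. In lesional fibroblast-like nuclei, 7.44% of all tested genes were past the fold higher and 5.57% lower. Of the 45 list genes 36 were tested there, of which 9 were past the fold higher and 1 lower. Beside the 3 members, those higher were Mmp10, Mmp23, Mmp27, A2m, Plaur and Syn2, and Mmp15 was lower. The median ratio of the list was 0.04.

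Plaur, the urokinase receptor, had 68 and 175 UMIs (log2 ratio 1.32, 0.91 to 1.75), and it was higher in nuclei of both sexes (1.85 and 0.88). Mmp23, a membrane MMP, went from 19.6 to 28.1 CPM (0.52, 0.29 to 0.74). A2m, a broad protease inhibitor, had 67 and 108 UMIs (0.64, 0.20 to 1.11). Mmp10, stromelysin 2, which lies on chromosome 9 with Mmp3, Mmp12 and Mmp13, had 6 and 72 UMIs, but 55 of the 72 lay in 1 nucleus. Without the highest nucleus of each library its ratio was 2.28 in place of 3.44. Mmp15, a membrane-type MMP, had 49 and 25 UMIs (interval −1.77 to −0.29), and Mmp27 33 and 59 (0.79, 0.16 to 1.46). Plaur and Mmp27 had their highest levels in myeloid-like nuclei, at 52.4 and 54.2 CPM and at 24.3 and 44.3 CPM. A2m had its highest level in astrocyte-like nuclei, at 1209 and 1404 CPM. The part of background from those classes in the fibroblast-like differences of Plaur, Mmp27 and A2m was not tested.

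In lesional myeloid-like nuclei, 6.75% of all tested genes were past the fold higher and 8.04% lower. Of the 45 list genes 30 were tested there, of which 7 were past the fold higher and 3 lower. Plau, the urokinase-type plasminogen activator, had 176 and 439 UMIs (0.76, 0.51 to 1.03), with 0.59 in female-mouse and 0.95 in male-mouse nuclei. Mmp27 had 85 and 227 UMIs (0.86, 0.50 to 1.24), with 2.13 in female-mouse and −0.03 in male-mouse nuclei. A2m, Syn1 and Syn3 were the others higher, and Reck and Spock2 were lower beside Timp3.

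The highest levels of other list genes lay in a range of classes. Mmp13, collagenase 3, was at 832 and 1282 CPM in osteoblast lineage-like nuclei against 68.5 and 91.3 in fibroblast-like nuclei. A2m was at 1209 and 1404 in astrocyte-like nuclei. Lrp1, the endocytic receptor that clears MMPs and TIMPs, was at 720 and 847 in myeloid-like nuclei, next to 576 and 836 in osteoblast lineage-like and 581 and 584 in fibroblast-like nuclei. Bsg, an inducer of MMPs, was at 727 and 795 in endothelial-like nuclei. Spock1 was at 842 and 850 in oligodendrocyte-like nuclei and at 602 and 682 in lesional excitatory neuron-like nuclei. Spock3 was at 889 and 1107 in lesional and at 922 and 903 in parenchymal inhibitory neuron-like nuclei, so these are together the highest for this gene. Mmp9, gelatinase B, was almost uncounted, at 3.15 and 1.17 in myeloid-like nuclei.

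Timp3 and Timp4 differed between lesional and parenchymal neurons in both libraries. In excitatory neuron-like nuclei Timp4 stood at 26.9 and 23.7 CPM in parenchyma and at 5.80 and 5.11 in lesions, a log2 ratio of lesion over parenchyma of −2.20 (−2.68 to −1.78) in the control-labelled library and −2.17 (−3.03 to −1.51) in the cKO-labelled library. Timp3 stood at 20.7 and 17.8 in parenchyma and at 6.20 and 5.11 in lesions, a ratio of −1.73 (−2.20 to −1.32) and −1.76 (−2.62 to −1.09). The values of the 4 mice did not overlap between regions. By mouse, Timp4 ranged from 21.3 to 30.7 in parenchyma and from 3.80 to 9.80 in lesions, and Timp3 from 17.7 to 21.5 and from 3.32 to 5.79. The lesional values rested on few UMIs, 5 to 19 a mouse for Timp4 and 2 to 21 for Timp3.

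The host genes on the opposite strand had ratios nearer 0. The ratio of Syn2, which holds Timp4, was −0.16 (−0.22 to −0.10) and −0.27 (−0.36 to −0.19), below 0 in both libraries, and that of Syn3, which holds Timp3, was 0.04 and −0.15. By cluster the Syn2 ratio ran from −0.64 to 0.04 and the Syn3 ratio from −0.50 to 0.77. The part of reads from the host genes in the Timp values was not tested. Both Timp genes were lower in lesions in each of 4 excitatory clusters in each library, with 1 to 18 lesional UMIs of the gene in a cluster. In the cluster with Rorb among its leading genes, the Timp3 interval in the cKO-labelled library spanned 0 (−0.94, −2.72 to 0.19). Summed over all excitatory neuron-like nuclei, in parenchyma and lesions, Timp2 (15.0 and 15.4 against 16.9 and 16.0) and Mmp16 (586 and 573 against 677 and 593) had ratios of no more than 0.21. By cluster the Timp2 ratio ran from −0.89 to 1.19 and the Mmp16 ratio from −0.32 to 0.40. Mmp14 had the opposite sign, at 1.76 (1.06 to 2.42) and 0.72 (−0.74 to 1.77), from 32 and 7 lesional UMIs. Mmp2 did too, at 1.96 (0.84 to 3.02) and 1.96 (0.08 to 3.37), from 14 and 5 lesional UMIs. Mmp12 was at 1.21 (−0.73 to 2.74) and 2.35 (1.42 to 3.17), from 5 and 17. Timp1 was lower in lesions, at −2.56 (−8.47 to −0.58) and −0.38 (−2.91 to 1.03), from 1 and 3. The intervals of Mmp3 and Mmp11 span 0.

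Summed over all inhibitory neuron-like nuclei the order was the same for both inhibitors. Timp4 was at 29.1 and 28.4 in parenchyma and 10.8 and 5.23 in lesions (ratios −1.40 and −2.35), and Timp3 at 33.1 and 29.3 against 19.8 and 12.7 (−0.72 and −1.17). Of the inhibitory clusters with enough nuclei, the smaller went the other way for Timp3 in the control-labelled library, at 28.1 in parenchyma and 46.5 in lesions, from 9 lesional UMIs (0.78, −0.53 to 1.83). The larger held 101 of 139 lesional inhibitory neuron-like nuclei in the control-labelled library and 62 of 137 in the other. The summed class was thus not made up alike in the libraries. Lesional neuron-like nuclei were fewer, with 504 and 235 excitatory nuclei against 2192 and 2078, and shallower, with medians of 13917.5 and 12781 UMIs. The summed level of 8 fibroblast markers was 190 and 120 CPM in lesional and 66.5 and 68.0 in parenchymal excitatory neuron-like nuclei, all 8 detected in each, and that of 6 excitatory markers was 2086 and 2223 against 1977 and 1862. The part of depth and of these markers in the region difference was not tested.

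**Figure D5:**
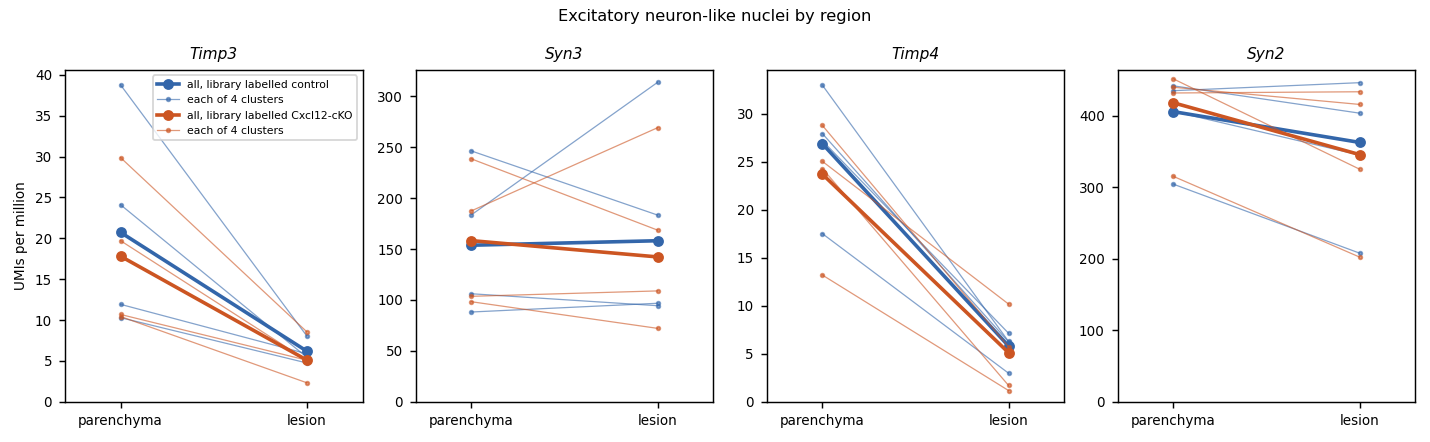
Level (CPM, linear axes from 0) of Timp3 and Timp4 and of their host genes Syn3 and Syn2 in parenchymal and lesional excitatory neuron-like nuclei, thick lines for all such nuclei of a library and thin lines for each of 4 clusters. Every Timp3 and Timp4 line falls from parenchyma to lesion, while the Syn3 lines go both ways and the library values of Syn2 fall by 0.16 and 0.27 on the log2 scale. Each thin Timp3 or Timp4 line rests on 1 to 18 lesional UMIs.

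Across 26 sums of a class, region and library, the genes outside the pathway list whose log2 levels followed each member most closely were, for Mmp2, Lum (Pearson r = 0.863), Zbed6 and Gpx3. For Mmp3 they were Slc39a14 (0.850), Gm867 and Has2, the last a hyaluronan synthase. For Mmp11 they were Lgals4 (0.875), Dusp11 and Rrs1, and for Mmp12 Fnip2 (0.885), Hexa and Blvra. Mmp14 was followed by Lrrk1 (0.960), Sec24d and Lims1, and Mmp16 by Nmnat2 (0.949), Sobp and Uggt2. The inhibitors were followed by Vstm4 (0.898), Slc35d1 and Tns2 for Timp1, by Rrbp1 (0.932), Tmem87b and Snx9 for Timp2, by Acacb (0.901), Shroom4 and Amotl1 for Timp3, and by Spata6l (0.847), Adgrl3 and Tox3 for Timp4. Among the members themselves Mmp14 and Timp2 had r = 0.85 and Mmp12 and Mmp16 r = −0.73. The sums come from only 2 libraries and share classes and depth, so these values describe the ranking and carry no test.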

How the data were processed

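snRNA-seq was done by the authors with 10x Genomics 3′ chemistry and CellPlex tags, with 1 library for each genotype. Per the submitters' processing notes the deposited UMI counts were made with Cell Ranger 9.0.0 on GRCm39; no value of theirs other than these raw counts was used, and 0 columns of samples outside the map were found. The sources used here do not say if intronic reads were counted, or on which strand. The deposited counts held 23489 barcodes in 4 matrices, with summed UMIs of 31995274 to 62749811 per matrix.

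Barcodes in the outer 2.5% tails of UMIs or genes, or above 8.75% mitochondrial UMIs, were removed (757 to 36243 UMIs and 584 to 6418 genes kept), which left 21743 nuclei. Counts were scaled to 10000 UMIs, log-transformed and clustered with scanpy 1.11.5 (3000 variable genes, 30 principal components, 20 neighbours, Leiden resolution 0.25) with the 45 pathway genes left out, and sub-clustered with 2000 variable genes. A class was named from at least 3 raised markers of a fixed list. Naming limits and mixed sub-clusters were chosen after seeing the data. Scrublet marked 3.78%, 0%, 3.88% and 0.404% of barcodes in the 4 matrices, so that it did not work in parenchyma, and no called doublet was removed.

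UMIs were summed by class, region and library, since nuclei are not replicates. With 1 library per genotype no test was run. Levels carry exact Poisson, shares exact binomial (Clopper-Pearson) and ratios exact conditional 95% intervals, which cover counting error only (scipy 1.17.1, numpy 2.4.6, pandas 2.3.3, Python 3.11.15). A count of 0 allows up to 3 counts, or the interval's upper bound where that is printed. The ratio was tested on simulated data. The 10 members, the pathway list and the other lists were chosen with earlier results of these data known. Named genes were all members, the list genes past the fold in fibroblast-like or myeloid-like lesional nuclei or with the highest level in a class, and the 3 genes most correlated with each member among 16355 with at least 200 UMIs. Promoters are RefSeq windows on GRCm38.p6 and gene overlaps GENCODE M21 on GRCm38, and coordinates of the files' build were not used. Alternatives covered scaling, weighting of nuclei and states, tails, resolution, doublets, class calls, each sex, pseudocount, depth and fold.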

Additional observations from a re-analysis of the deposited data

Results flagged for a closer look

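The log2 ratio of the cKO-labelled over the control-labelled library had opposite signs in the nuclei of the female and male mice, with both intervals off 0, for 3 members. Mmp11 in lesional fibroblast-like nuclei was at 1.40 in the female mice (37 and 86 UMIs) and at −0.68 in the male mice (91 and 62). Timp3 in lesional osteoblast lineage-like nuclei was at 1.26 in the female mice (78 and 28 UMIs) and −1.26 in the male mice (43 and 6). Mmp16 in lesional inhibitory neuron-like nuclei was at −0.66 in female-mouse nuclei (62 and 103 nuclei) and 0.64 in male-mouse nuclei (55 and 17 nuclei). The clusters in this class were not in like shares, since that with Vip and Sst among its leading genes held 101 of 139 and 62 of 137 nuclei. The part of this make-up was not tested. Mmp3 in lesional astrocyte-like nuclei was lower in the female mice (−1.01, 59 and 34 UMIs) and went from 0 to 35 UMIs in the male mice, for which no ratio was computed. Each sex is 1 mouse per library, and the difference between the sexes was not tested.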

How the results depend on the processing

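Of the 10 members in lesional fibroblast-like nuclei, 3 were past the fold as reported and 2 or 3 under 10 alternatives; in nuclei of the female mice 5 were. In myeloid-like nuclei the 3 became 1 in female-mouse and 0 in male-mouse nuclei. The share of all tested genes past the fold was 13% in all lesional fibroblast-like nuclei, against 5.77% with a minimum of 100 UMIs and 2.47% at a log2 fold of 1. The share in nuclei of 1 sex is not given here, so nothing is read from the counts of members by sex. In nuclei of 1 sex the sign turned for 25 ratios of members in lesional classes. Of these, 20 were not past the fold in all nuclei of the class, and 4 of the 20 had an interval off 0, namely Mmp11 in fibroblast-like (−0.68, male), Timp3 in osteoblast lineage-like (−1.26, male), Mmp3 in astrocyte-like (−1.01, female) and Mmp16 in inhibitory neuron-like nuclei (0.64, male). The 5 past the fold were Mmp12 in fibroblast-like (−0.08, male), Timp3 in endothelial-like (−0.15, female), Mmp16 in oligodendrocyte precursor-like (−0.03, female) and oligodendrocyte-like (0.09, female), and Timp3 in inhibitory neuron-like nuclei (0.16, female); the cause was not tested. No ratio was computed where the nuclei of a mouse held at most 3 UMIs in either library. Of 365 single-gene values, 280 were unchanged or moved by less than their interval, 80 moved by more and 5 that were past the fold changed sign. At state resolution 0.3 the highest Timp3 levels of a fibroblast-like state were 483.5 CPM in the control-labelled and 537.4 in the cKO-labelled library. They lay in a small state of 44 and 55 nuclei and were above the 287 and 232 of the Col4a6-led state. No paired analysis was possible because each genotype was 1 library. At this depth Timp4 and Mmp12 in fibroblast-like nuclei, and every class under 150 nuclei, are limited by counting error.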
